A study of Mus musculus with 27 samples.

Results

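The cytochrome P450 (Cyp) genes were examined in hepatic stellate cells (HSCs) isolated from mouse livers before and after injury with carbon tetrachloride (CCl4). The set held every protein-coding gene whose mouse symbol is Cyp followed by a family number, a subfamily letter and a member number, which gave 93 of the 53379 genes in the count table. Classes were set by known role for sterols and bile acids, steroid hormones, retinoic acid and vitamin D, and otherwise by family number. A member of the xenobiotic or fatty acid families may thus act on other substrates. The xenobiotic families hold 57 genes and the fatty acid family 17. Sterol and bile acid metabolism holds 6, steroid hormone synthesis 6, retinoic acid breakdown 3 and vitamin D metabolism 3. Cyp20a1 has no agreed substrate. The rule left out 7 protein-coding P450 symbols of another form, among them Cyp51. Of the 93 genes, 21 had no count in any library and 52 passed the filter on low counts and were tested. Tested were 33 of the xenobiotic genes, 9 of the fatty acid genes, all 6 sterol and bile acid genes, 2 of the retinoic acid genes, 1 of the vitamin D genes, 0 of the steroid hormone genes and Cyp20a1. The 41 genes that were not tested reached at most 48 counts in a library, in Cyp3a59, and 29 of the 93 never exceeded 3 counts.

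Cytochrome P450 enzymes are membrane-bound heme proteins that insert an oxygen atom into lipids, drugs and toxins. The microsomal members use electrons passed on by the reductase Por. In the liver most of the drug-metabolizing members are made by hepatocytes, and the pericentral enzyme Cyp2e1 converts CCl4 into the radical that injures them. Stellate cells store vitamin A, and Cyp26 enzymes break down its active product, retinoic acid. Cyp7a1, Cyp7b1, Cyp8b1, Cyp27a1 and Cyp39a1 carry out steps in the conversion of cholesterol to bile acids.

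All libraries came from male Balb/c mice, and the HSCs were sorted by the ultraviolet fluorescence of their retinoids and lysed without culture. Healthy mice (n = 4, aged 10 to 12 weeks) were not injected, so no group received the mineral oil vehicle alone. Acute injury was 1 intraperitoneal injection of CCl4 at 0.5 µL per gram at 10 to 12 weeks of age, and its 3 groups were sampled 24 h (n = 3 libraries), 72 h (n = 4) and 7 d later (n = 4). Chronic injury was 8 injections of the same dose over 4 weeks, starting at 8 to 10 weeks of age, with cells taken 24 h, 72 h or 14 d after the last (n = 4 each). Each library is described as an individual experiment, and each holds all cells that passed the sort.

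Library totals ran from 6.31 to 13.05 M counts. The 8 libraries of lower depth, at most 7.58 M, were every chronic 14 d library and replicates 1 and 2 at each of chronic 24 h and chronic 72 h, so that depth and group cannot be told apart between chronic 14 d and healthy libraries. The 5 defining stellate markers (Lrat, Des, Reln, Hand2, Pdgfrb) were counted in every library and summed to 3444 to 6753 CPM (counts scaled to a common effective library size). A wider list of 12 stellate genes summed to 22576 to 28605 CPM in healthy libraries, 11793 to 17390 at acute 24 h and 7757 to 15547 in the other injured groups. Markers of hepatocytes were also present in every library. The summed CPM of a list of 26 hepatocyte genes, none of them a Cyp gene, was 1837 to 11946 in healthy, 830 to 1315 in acute 24 h, 2965 to 6362 in acute 72 h, 5303 to 8898 in acute 7 d, 1928 to 6510 in chronic 24 h, 6651 to 9696 in chronic 72 h and 5634 to 24905 in chronic 14 d libraries. Healthy replicate 4 and chronic 14 d replicate 2 stood apart as the highest of their groups. In such bulk libraries, fewer cells of a type and less RNA per cell cannot be told apart.

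Upstream sequence is shown for 3 members whose RNA followed different courses below, Cyp8b1, Cyp1b1 and Cyp26a1. The sequences are the bases before the RefSeq start on GRCm38.p6, given 5′ to 3′ on the strand of the gene, at chr9:121916306-121916555 (minus strand), chr17:79715062-79715311 (minus strand) and chr19:37697558-37697797 (plus strand). For Cyp26a1 the bases within the annotated gene were left off, so its 240 printed bases end short of the RefSeq start. Capitals mark letters found on either strand of 4 motifs, which were CAAAGTCCA of the HNF4 type, the TATA box letters TATAAA, the core GCGTG of the element bound by the dioxin receptor, and AGTTCANNNNNAGTTCA, a direct repeat spaced by 5 bases as bound by retinoic acid receptors.
Cyp8b1: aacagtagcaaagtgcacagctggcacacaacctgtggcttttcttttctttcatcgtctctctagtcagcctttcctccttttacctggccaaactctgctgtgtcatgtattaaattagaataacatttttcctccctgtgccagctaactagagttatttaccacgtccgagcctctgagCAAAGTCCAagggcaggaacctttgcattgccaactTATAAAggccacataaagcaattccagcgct
Cyp1b1: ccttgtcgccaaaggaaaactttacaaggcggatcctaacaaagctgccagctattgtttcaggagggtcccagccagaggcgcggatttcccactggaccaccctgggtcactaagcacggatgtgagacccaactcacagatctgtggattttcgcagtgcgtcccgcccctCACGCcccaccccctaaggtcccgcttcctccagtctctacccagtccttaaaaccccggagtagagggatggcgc
Cyp26a1: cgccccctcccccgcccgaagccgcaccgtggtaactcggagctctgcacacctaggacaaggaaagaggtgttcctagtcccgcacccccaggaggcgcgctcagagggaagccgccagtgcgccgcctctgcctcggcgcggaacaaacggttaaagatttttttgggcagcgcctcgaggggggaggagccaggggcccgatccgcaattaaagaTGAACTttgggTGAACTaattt
RefSeq windows were given for 72 of the 93 genes, 82 windows in all, among 32851 windows of 27025 symbols. Within the 250 bases before the start, the spaced repeat was in 0.0213% of all windows and in 1 member, Cyp26a1. CAAAGTCCA was in 0.384% of all windows and in 9 of the 82 member windows, those of Cyp8b1, Cyp3a11, Cyp3a16 and 6 Cyp2c genes, several of which are close copies of each other. TATAAA was in 12.4% of all windows and 34.1% of member windows, and GCGTG in 28.2% and 18.3%. A match of letters is a description and not evidence of binding.

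Per kilobase of exon, Cyp20a1 had the highest level of the family in healthy HSCs at 123 CPM per kb (group mean, as all levels per kb here), followed by Cyp27a1 at 42.2, Cyp3a11 at 36.3, Cyp2f2 at 31.8 and Cyp4b1 at 21.2 CPM per kb. Without healthy replicate 4, Cyp3a11 was at 13.3 and Cyp2f2 at 16.4 CPM per kb, both below Cyp4b1 at 21.7, so the order of these 3 rested on that library. At acute 24 h Cyp20a1 was at 83.4 and the next gene, Cyp4b1, at 13.9 CPM per kb. In chronic 24 h libraries Cyp7b1 at 28.3 and Cyp1b1 at 14.3 CPM per kb came next, and in chronic 14 d libraries Cyp3a11 was at 101 and Cyp20a1 at 89.4 CPM per kb. Cyp3a11 was the higher of the pair in 2 of those 4 libraries, and without replicate 2 it was at 66.4 and Cyp20a1 at 87.5 CPM per kb. Across acute 7 d libraries Cyp2e1, at 60.7 CPM per kb, stood next to Cyp20a1 at 61.9. Cyp2e1 ranged from 63.7 to 210 CPM and Cyp20a1 from 54.3 to 189 CPM over those 4 libraries, so their order there was within the spread.

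In the comparisons that follow, a gene was called when its Benjamini-Hochberg adjusted p in edgeR's quasi-likelihood test was below 0.05 and its change above 2-fold. At 24 h after 1 injection, 27 of the 52 tested Cyp genes were lower than in healthy HSCs, where 12.5% of all genes tested were lower, and 1, Cyp1b1, was higher, against 9.41% of all genes. The median log2 fold change of the 52 genes was -3.08, or -1.93 with the 16 genes at 0 in one of the groups set to their bound, against -0.12 over all genes. Without healthy replicate 4 the higher count was 2. By 72 h, 7 genes were lower, against 4.33% of all genes, and 1, Cyp39a1, was higher, against 8.23%. The 7 became 4 without healthy replicate 4, and the 1 became 2 without healthy replicate 3 or 4. At 7 d none was lower, against 5.64%, while 9 were higher, against 9.23%. At an unadjusted p below 0.05, 5 were lower at 7 d, DESeq2 called 0, and leaving out healthy replicate 1 gave 2 and leaving out healthy replicate 2 or 3 or acute 7 d replicate 1, 3 or 4 gave 1. The 9 became 15 without healthy replicate 4. Among the 9, Cyp2c37 and Cyp4a10 had 0 counts in all healthy libraries, and Cyp2c39 and Cyp4f18 were near the limit of detection there. These genes passed the filter mainly through groups in which they were high. They could hardly be called lower than in healthy HSCs, so their higher calls are descriptions only.

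After chronic injury lower calls also came first and higher calls later. At chronic 24 h, 14 genes were lower than in healthy HSCs, against 8.11% of all genes, and 4 were higher, against 11.2%. The 14 became 8 without healthy replicate 4 or chronic 24 h replicate 2, 9 without chronic 24 h replicate 4, and were 12 when only libraries of higher depth were compared. At chronic 72 h no gene was lower, against 4.2%, and 13 were higher, against 7.88%. An unadjusted p below 0.05 was reached by 1 lower gene and DESeq2 called 0. The 13 became 7 without healthy replicate 1, 6 without healthy replicate 2, 5 without chronic 72 h replicate 4, and 8 among libraries of higher depth. At chronic 14 d no gene was lower, against 1.17%, with 0 at an unadjusted p below 0.05 and 0 in DESeq2, and 6 were higher, against 4.55%. That count was 2 without healthy replicate 1 or 2, 3 without chronic 14 d replicate 1, 1 without chronic 14 d replicate 2, 20 without healthy replicate 4 and 1 with depth class as a term. Among the 13, Cyp2c37, Cyp2c55 and Cyp4a10 had 0 counts in all healthy libraries. Cyp2c23, Cyp2c39 and Cyp26a1, also among them, were near the limit of detection there. Of these, Cyp2c23, Cyp2c37, Cyp26a1 and Cyp4a10 were among the 6. All passed the filter mainly through groups in which they were high. They could hardly be called lower than in healthy HSCs, so their higher calls are descriptions only.

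Within the chronic course, 30 genes were higher at 14 d than at 24 h after the last injection, against 6.65% of all genes, and none was lower, against 6.11%, with 1 lower gene at an unadjusted p below 0.05 and 0 in DESeq2. Leaving out chronic 14 d replicate 2 gave 19, and the libraries of lower depth alone gave 12. Of the 26 hepatocyte genes, 12 were also higher at chronic 14 d than at chronic 24 h and none was lower. Their median log2 fold change was 1.73, beside 1.98 for the tested Cyp genes, and the part of hepatocyte RNA was not tested. The plot of fitted changes shows the lower values at 24 h and the higher values later as blocks across the xenobiotic families.

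**Figure D1:**
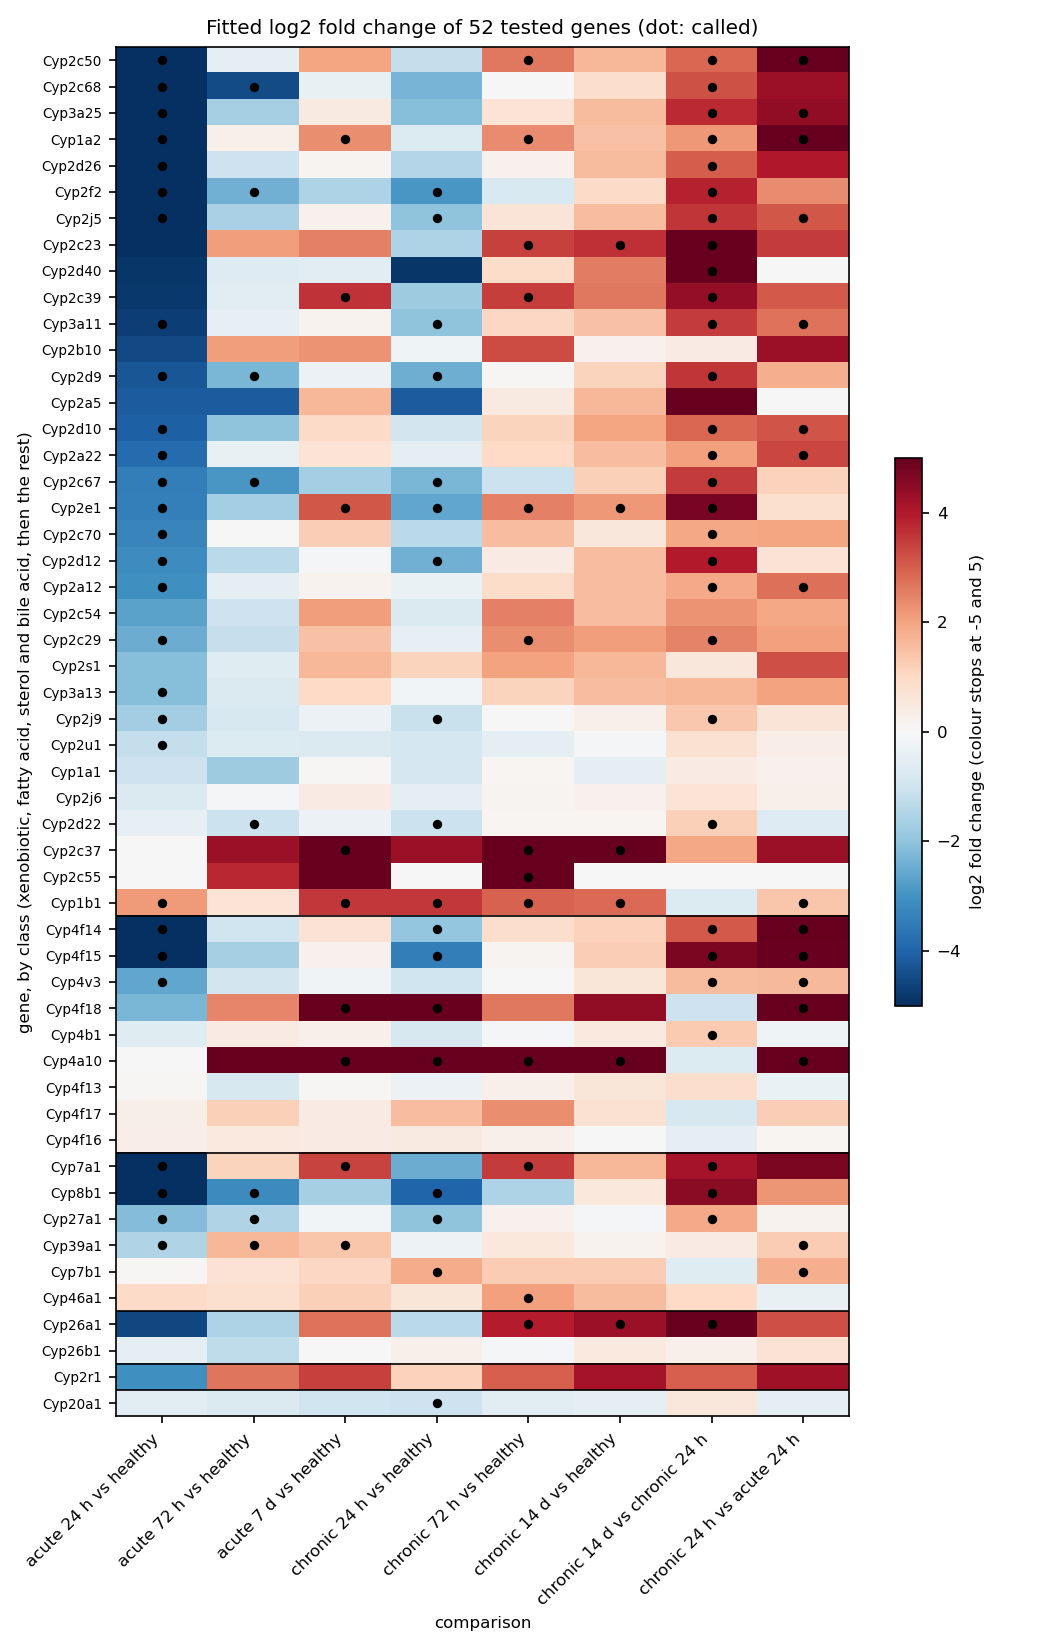
Fitted log2 fold change of the 52 tested Cyp genes (rows, grouped by class) in the 8 comparisons (columns), with a dot where a gene was called and the color scale ending at -5 and 5. The acute 24 h column holds 27 dots on lower values, and the column of chronic 14 d against chronic 24 h holds 30 on higher values.

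**Figure D2:**
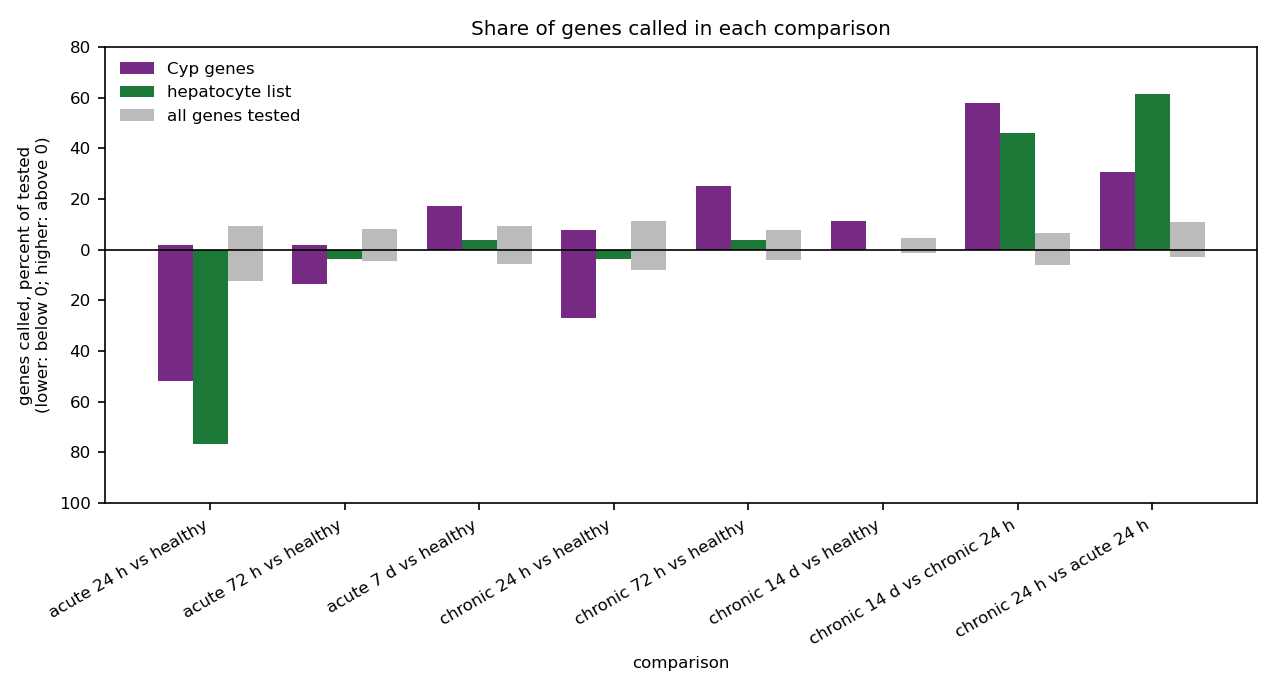
Percent of tested genes called lower (below 0) or higher (above 0) in each comparison, for the 52 Cyp genes, the 26 hepatocyte genes and all 18758 genes tested. At acute 24 h both lists have many lower genes (27 and 20), while at chronic 24 h the counts are 14 and 1.

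Of the 33 tested genes of the xenobiotic families, 20 were lower and 1 was higher at acute 24 h, 5 and 0 at acute 72 h, 0 and 5 at acute 7 d, 9 and 1 at chronic 24 h, 0 and 9 at chronic 72 h and 0 and 4 at chronic 14 d. The lower share was 60.6% at acute 24 h, 15.2% at acute 72 h and 27.3% at chronic 24 h, against 12.5%, 4.33% and 8.11% of all genes. The higher share was 27.3% at chronic 72 h, 15.2% at acute 7 d and 12.1% at chronic 14 d, against 7.88%, 9.23% and 4.55% of all genes. These shares include genes at or near the limit of detection in healthy libraries, which could hardly be called lower. They were Cyp2c23, Cyp2c37, Cyp2c39 and Cyp2c55 at chronic 72 h, Cyp2c37 and Cyp2c39 at acute 7 d, and Cyp2c23 and Cyp2c37 at chronic 14 d. Cyp2e1 (chr7:140763739-140774987, plus strand) was measured at 2.63, 13.3, 15.8 and 28.3 CPM in the 4 healthy libraries. It was at 2.58, 1.13 and 0.527 CPM at acute 24 h, at 1.9 to 8.21 at acute 72 h, and at 77.6, 63.7, 210 and 172 at acute 7 d. The chronic libraries gave 5.85, 2.61, 0.702 and 1.28 CPM at 24 h, 56.1, 58.4, 75.4 and 155 at 72 h, and 105, 97.8, 39.3 and 25.6 at 14 d. Every acute 7 d and chronic 72 h library thus lay above every healthy one, and the acute 24 h libraries lay below all of them. The log2 fold change against healthy was -3.40 ± 0.85 (SE, adjusted p = 0.00339) at acute 24 h and -2.60 ± 0.73 (adjusted p = 0.00928) at chronic 24 h, where replicate 1 of each group brought an overlap. It was 3.12 ± 0.70 (adjusted p = 0.0022) at acute 7 d and 2.52 ± 0.68 (adjusted p = 0.0105) at chronic 72 h. Without acute 24 h replicate 1 the first value was -4.16, and without chronic 24 h replicate 1 the second was -3.35. The value at chronic 14 d, 2.16 ± 0.67 (adjusted p = 0.0477), lost its call without any one of healthy replicates 1 to 3 or chronic 14 d replicates 1 to 3, with values of 1.81 to 2.39. At acute 72 h it was -1.70 ± 0.68 and was not called (adjusted p = 0.0783), but was -2.05 (adjusted p = 0.0293) without healthy replicate 1.

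Cyp3a11, a major hepatic drug-metabolizing enzyme (chr5:145854426-145879964, minus strand), was also lowest at acute 24 h. Healthy libraries held 47.4, 56.7, 99.4 and 537 CPM, the last in replicate 4, and acute 24 h libraries 2.05, 3.47 and 15.7 CPM. The change was -4.71 ± 0.98 on the log2 scale (adjusted p = 0.000696), or -3.26 without healthy replicate 4 and -6.06 without acute 24 h replicate 3. At chronic 24 h the libraries held 16 to 67.9 CPM and overlapped with the healthy ones, and the fitted change of -2.01 ± 0.76 (adjusted p = 0.0489) shrank to -0.56 (adjusted p = 0.555) without healthy replicate 4. That call was also lost without any one chronic 24 h library, at -1.72 to -2.25. Levels at chronic 72 h (322 to 461 CPM) and chronic 14 d (219 to 1043 CPM) overlapped with the healthy range, through replicate 4, and it was not called higher than in healthy HSCs in any comparison. Between chronic 24 h and 14 d Cyp3a11 rose by 3.48 ± 0.81 (adjusted p = 0.00321), and the libraries of both groups did not overlap.

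Other hepatic xenobiotic enzymes were low at acute 24 h as well. Cyp1a2, a pericentral target of the dioxin receptor, had 0, 0 and 0.439 CPM there against 1.72, 9.36, 10.4 and 14.1 in healthy HSCs (log2 fold change -5.82 ± 1.19, adjusted p = 0.000598, and -9.55 without acute 24 h replicate 3). It then exceeded every healthy library at acute 7 d (26.5 to 60.2 CPM, 2.33 ± 0.73, adjusted p = 0.0222) and chronic 72 h (32.3 to 60.6 CPM, 2.38 ± 0.73, adjusted p = 0.0233). Cyp2f2 fell to 0, 0.868 and 4.04 CPM at acute 24 h from 16.2, 38.7, 44.8 and 157 CPM (-5.29 ± 1.02, adjusted p = 0.000351, -4.33 without healthy replicate 4 and -7.16 without acute 24 h replicate 3), and reads in the stretch that it shares with the antisense gene Gm15883, 6.53% of its windows, cannot be told apart. At chronic 24 h it stood at 5 to 11.7 CPM (-2.90 ± 0.79, adjusted p = 0.00718, and -1.95 without healthy replicate 4), and among libraries of higher depth the value was -3.22 and was not called (adjusted p = 0.0559). For Cyp2d9 and Cyp3a25, 12.9% and 12.3% of 75-base windows are shared with another gene, so their counts are uncertain. Cyp3a25 had 0, 0 and 0.79 CPM at acute 24 h against 8.07 to 72.4 CPM in healthy libraries. Cyp2d9 held 14.1, 27.5, 31.8 and 138 CPM in healthy libraries and 0.445, 2.43 and 5.18 at acute 24 h, and at chronic 24 h 12.3, 11.9, 6.49 and 8 CPM. In chronic 24 h libraries its fitted change against healthy was -2.46 ± 0.70 (adjusted p = 0.00993), which was not called without healthy replicate 4 (-1.35, adjusted p = 0.103).

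Cyp2j5, an arachidonic acid epoxygenase of liver and kidney, held 3.63, 5.27, 5.65 and 35.5 CPM in healthy HSCs, 0, 0.521 and 0.527 at acute 24 h and 4.80, 3.43, 1.05 and 3.36 at chronic 24 h. Cyp2d10 held 3.72, 7.80, 9.18 and 34.7 CPM in healthy HSCs, 0, 1.04 and 1.40 at acute 24 h and 8.84, 7.28, 2.46 and 11 at chronic 24 h, with 22.3% of its windows shared with another gene. Cyp2a22 held 1.18, 1.46, 1.52 and 6.67 CPM in healthy HSCs, 0.178, 0.0868 and 0.263 at acute 24 h and 2.70, 2.196, 1.75 and 1.12 at chronic 24 h, with 9.21% of its windows shared. All 3 genes lay below the healthy libraries at acute 24 h and overlapped with them at chronic 24 h. Cyp2d12 held 0.725, 0.780, 1.10 and 3.90 CPM in healthy HSCs, 0.267, 0.0868 and 0.176 at acute 24 h and 0.300, 0.412, 0.263 and 0.240 at chronic 24 h, below the healthy libraries at both times. Its log2 change at chronic 24 h was -2.41 ± 0.60 (adjusted p = 0.0034), and -1.51 without healthy replicate 4. Every acute 24 h and chronic 24 h library held 3 counts or fewer of Cyp2d12, near the limit of detection, against 8, 8, 13 and 45 in healthy HSCs.

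Cyp2c23, an arachidonic acid epoxygenase, and Cyp2c39, which can hydroxylate retinoic acid, were near the limit of detection in healthy HSCs. Cyp2c23 held 0.544, 0.488, 0.506 and 0 CPM there and 3.33, 4.29, 2.02 and 7.36 at chronic 72 h, a log2 change of 3.44 ± 1.02 (adjusted p = 0.0205) that was not called without chronic 72 h replicate 4 (3.02, adjusted p = 0.0661). Cyp2c39 had a count in 1 of the 4 healthy libraries and held 2.87 to 6.2 CPM in all 4 acute 7 d libraries (3.62 ± 1.09, adjusted p = 0.0186). That value was 8.44 without healthy replicate 3, the only one with counts, and was not called without healthy replicate 2 (3.24, adjusted p = 0.0532). Cyp2c37 had 0 counts in all healthy libraries and 1.87 to 2.43 CPM at chronic 72 h, at least 8.05-fold higher against a floor of 3 counts per library. Cyp2c37 passed the filter on low counts through the groups in which it was high, and so, in the main, did Cyp2c23 and Cyp2c39.

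Cyp1b1, the dioxin-inducible enzyme that is expressed in mesenchymal cells and also hydroxylates estradiol and retinoids (chr17:79701537-79715061, minus strand), moved the other way. It measured 3.63, 4.88, 11.1 and 9.45 CPM in healthy HSCs. Acute libraries gave 62.6, 20.2 and 11.9 CPM at 24 h, 9.74, 9, 10.8 and 17.5 at 72 h, and 87.6, 117, 60.4 and 73.4 at 7 d. Chronic libraries gave 138, 62.5, 63.2 and 70.5 CPM at 24 h, 46.9 to 69.7 at 72 h and 37.5 to 73 at 14 d. Except at acute 72 h, every injured library was above every healthy one. The log2 fold change was 2.11 ± 0.45 at acute 24 h (adjusted p = 0.000783, and 1.14 without acute 24 h replicate 1), 3.54 ± 0.45 at acute 7 d (adjusted p = 5.66e-06), 3.52 ± 0.45 at chronic 24 h (adjusted p = 2.6e-06), 2.94 ± 0.44 at chronic 72 h (adjusted p = 4.25e-05) and 2.83 ± 0.44 at chronic 14 d (adjusted p = 0.00024). At acute 72 h it was 0.69 ± 0.42 and was not called (adjusted p = 0.256). Macrophage markers, given below with Cyp4f18, were also higher in the 4 groups with the largest changes of Cyp1b1, with 10 of 12 genes called higher at acute 7 d, 8 at chronic 24 h, 8 at chronic 72 h and 4 at chronic 14 d, against 1 higher and 2 lower at acute 24 h, and their part in its result was not tested. Nor was that of neutrophil markers, with all 5 tested genes called higher in each of these 4 groups and 4 at acute 24 h, of lymphocyte markers, with 2 to 5 of 7 higher in the 4 groups, or of cholangiocyte markers, with 1 to 2 of 6 higher and a sum of 761 to 4798 CPM at acute 7 d against 56 to 103 CPM in healthy libraries. None of its 75-base windows is shared with another gene. Cyp1a1, which answers to the same receptor, was not called in any comparison, with 1.54 to 5.11 CPM in healthy libraries and 0 to 4.95 CPM in the others.

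**Figure D3:**
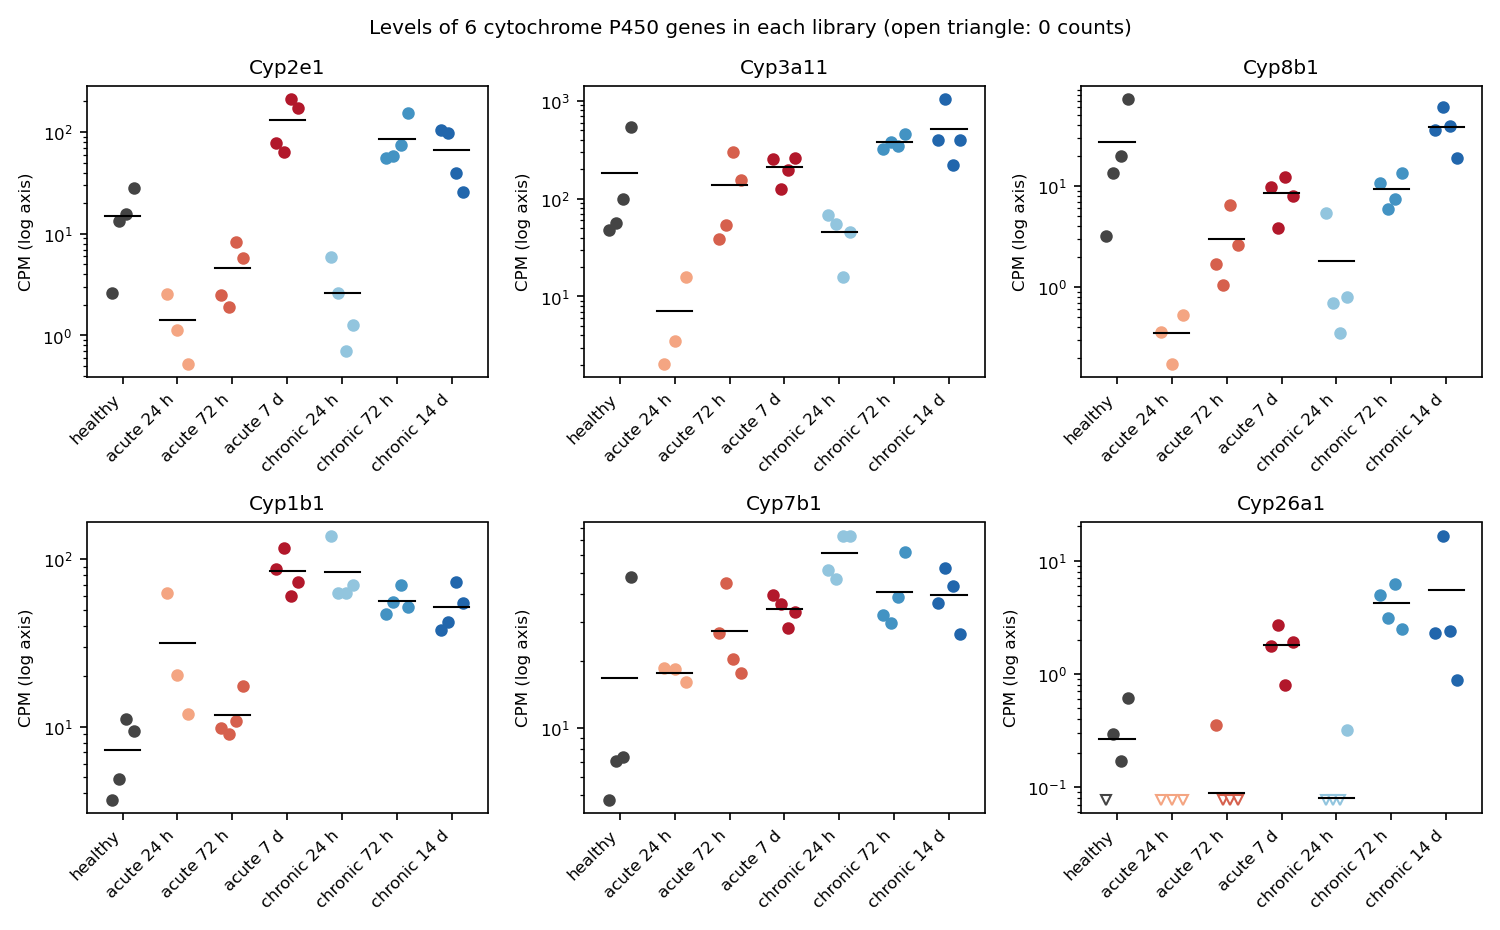
CPM on a log axis of 6 Cyp genes in each of the 27 libraries by group, with a bar at the group mean and an open triangle where a library had 0 counts. Cyp2e1, Cyp3a11 and Cyp8b1 are lowest at acute and chronic 24 h, Cyp1b1 lies above the healthy libraries in every injured group but acute 72 h, and Cyp26a1 is near 0 until acute 7 d, chronic 72 h and chronic 14 d.

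The 6 sterol and bile acid enzymes took different courses, with 4 called lower at acute 24 h, 2 lower and 1 higher at acute 72 h and at chronic 24 h, 2 higher at acute 7 d and at chronic 72 h, and 0 called at chronic 14 d. Against these, 12.5% of all genes were lower at acute 24 h, and 4.33% to 11.2% were called in the other directions named. Cyp8b1, the sterol 12-alpha-hydroxylase that sets the share of cholic acid (chr9:121914356-121916305, minus strand), had 3.17, 13.5, 19.6 and 72.4 CPM in healthy HSCs and 0.356, 0.174 and 0.527 at acute 24 h (-6.22 ± 1.11, adjusted p = 0.000141, and -5.06 without healthy replicate 4). It remained low at acute 72 h with 1.68, 1.04, 6.5 and 2.63 CPM (-3.19 ± 0.79, adjusted p = 0.0051) and at chronic 24 h with 5.4, 0.686, 0.351 and 0.8 CPM (-4.00 ± 0.84, adjusted p = 0.000869). In chronic 14 d libraries it was back at 35.9, 61.1, 39.4 and 18.8 CPM, within the healthy range. Cyp7a1, the rate-limiting enzyme of bile acid synthesis, had 0 counts in all 3 acute 24 h libraries and was at least 6.58-fold lower than in healthy HSCs, whose values were 0, 1.76, 3.54 and 1.65 CPM (at least 4.30-fold without healthy replicate 3). It then exceeded the healthy range at acute 7 d with 18, 7.14, 28.3 and 18.9 CPM (3.37 ± 1.00, adjusted p = 0.0183, and 3.98 without healthy replicate 3). At chronic 72 h it held 6.93, 6.71, 28.6 and 36.4 CPM (3.495 ± 1.01, adjusted p = 0.0174), 4.11 without healthy replicate 3 and not called without chronic 72 h replicate 4 (3.02, adjusted p = 0.0572).

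Cyp27a1, the mitochondrial sterol 27-hydroxylase (chr1:74713574-74737892, plus strand), had little spread between replicates. It measured 90.2, 79.4, 89.8 and 108 CPM in healthy HSCs, 17.4, 23 and 20.5 at acute 24 h, 31.7, 36.7, 25.4 and 35.7 at acute 72 h, and 100, 64.8, 83.2 and 84.5 at acute 7 d. Chronic libraries gave 34, 18.8, 18.1 and 21.1 CPM at 24 h, 129, 85.3, 105 and 109 at 72 h and 74.4, 111, 84.2 and 69.9 at 14 d. The 3 early groups therefore lay entirely below the healthy libraries. On the log2 scale the changes were -2.18 ± 0.23 at acute 24 h (adjusted p = 2.52e-07), -1.50 ± 0.20 at acute 72 h (adjusted p = 1e-05) and -1.999 ± 0.20 at chronic 24 h (adjusted p = 1.23e-07). No library left out changed these calls or moved their values by more than 1.5-fold. Of 10 sinusoidal endothelial markers, 6 were called lower at acute 24 h, 8 at acute 72 h and 5 at chronic 24 h. At acute 24 h 1 of them was also higher. None was lower at acute 7 d, chronic 72 h or chronic 14 d, and the part of these markers in the Cyp27a1 result was not tested.

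Cyp7b1, the oxysterol 7-alpha-hydroxylase, was higher at chronic 24 h, with 51.6, 47.1, 73.5 and 73.4 CPM against 4.71, 7.12, 7.41 and 47.7 CPM in healthy HSCs. The log2 fold change was 1.87 ± 0.50 (adjusted p = 0.00584), and 3.26 (adjusted p = 2.55e-07) without healthy replicate 4. With only the 2 groups compared in the fit, Cyp7b1 was not called (1.87, adjusted p = 0.0886). In the other injured groups it held 16.1 to 62.1 CPM, above every healthy library but replicate 4, and was not called against healthy HSCs. Cyp39a1, which hydroxylates 24-hydroxycholesterol, was lower at acute 24 h with 1.07, 1.82 and 2.9 CPM against 4.44, 3.9, 5.22 and 8.67 in healthy HSCs (-1.52 ± 0.42, adjusted p = 0.00635). Without acute 24 h replicate 1 that value was -1.23 and was not called (adjusted p = 0.0516). At acute 72 h Cyp39a1 was instead above all healthy libraries, at 11.5, 11.9, 22.9 and 24.9 CPM (1.68 ± 0.36, adjusted p = 0.00163). At acute 7 d it held 20.9, 16.2, 12 and 8.66 CPM (1.37 ± 0.36, adjusted p = 0.00737), the last of which overlapped with healthy replicate 4. Cyp46a1, the cholesterol 24-hydroxylase known from neurons, was called only at chronic 72 h among the comparisons with healthy HSCs, with 7.07, 5.57, 6.15 and 3.06 CPM against 0 to 2.02 CPM (2.06 ± 0.72, adjusted p = 0.045).

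Of the 9 tested genes of the fatty acid family, 3 were lower at acute 24 h, 2 lower and 2 higher at chronic 24 h, 2 higher at acute 7 d and 1 at each of chronic 72 h and chronic 14 d. The single genes are 11.1% of the family, near the 7.88% and 4.55% of all genes, and counts of 2 or 3 of 9 stand against 8.11% to 12.5% of all genes. Cyp4f14 and Cyp4f15, hydroxylases of leukotriene B4 and long-chain fatty acids, had 0 counts in all 3 acute 24 h libraries. Healthy HSCs held 1.63, 2.05, 4.72 and 18.1 CPM of Cyp4f14 and 1.36, 2.73, 3.2 and 8.93 CPM of Cyp4f15. Against a floor of 3 counts per library they were at least 25.1-fold and 15.4-fold lower, or at least 10.6-fold and 9.22-fold without healthy replicate 4. Cyp4v3 fell from 19.8, 25.1, 22.3 and 88.8 CPM to 6.41, 5.9 and 7.02 at acute 24 h (-2.60 ± 0.52, adjusted p = 0.000435, and -1.79 without healthy replicate 4), and it overlaps the gene Gm45753. Cyp4b1, among the 5 highest members per kb in healthy HSCs, was called in none of the 6 comparisons with them, its levels running from 19.3 to 65.7 CPM in healthy and from 23 to 116 CPM in injured libraries. Within the chronic course it rose from 25 to 31.1 CPM at 24 h to 45.3 to 86.4 CPM at 14 d (1.31 ± 0.38, adjusted p = 0.0141). Of the 10 sinusoidal endothelial markers, 7 were called higher in the same comparison and none lower, and their part was not tested.

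Cyp4f18, an omega hydroxylase known from myeloid cells, had 2 counts in the healthy libraries together and 142 in the acute 7 d libraries, where it stood at 3.64, 2.79, 3.54 and 1.46 CPM (adjusted p = 0.0123). The summed CPM of 12 macrophage markers was 165 to 697 in healthy, 4448 to 11663 in acute 7 d and 608 to 4072 in chronic 24 h libraries. That of 6 neutrophil markers was 0.39 to 2.18, 28.1 to 49 and 14.1 to 50.1 CPM in these groups, with all 5 tested genes called higher in both and medians of 5.60 and 4.80 on the log2 scale. The part of either list in the result was not tested. Cyp4f18 passed the filter on low counts through the groups in which it was high. Some of its counts may belong to Zfp961, which overlaps it. Cyp4a10, a target of the fatty acid receptor PPAR-alpha, had 0 counts in the healthy and acute 24 h libraries and 3.3, 0.549, 0 and 4.08 CPM at chronic 24 h, at least 7.36-fold higher, with 18.4% of its windows shared with another gene. It too passed the filter through the groups in which it was high. The bound was 5.73-fold without chronic 24 h replicate 1, 4.76-fold without replicate 4 and 1.02-fold without both.

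For retinoic acid breakdown, Cyp26a1 (chr19:37697798-37701536, plus strand) was barely detected in healthy HSCs, at 0, 0.293, 0.169 and 0.607 CPM. It had 0 counts at acute 24 h and in 3 of 4 libraries each at acute 72 h and chronic 24 h. In later groups it was detected in every library, at 1.78, 2.71, 0.805 and 1.92 CPM at acute 7 d, 4.93, 3.14, 6.23 and 2.51 at chronic 72 h and 2.3, 16.6, 2.41 and 0.881 at chronic 14 d, all above the healthy range. At acute 7 d Cyp26a1 was not called against healthy (log2 fold change of 2.70). At chronic 72 h the log2 fold change against healthy was 3.92 ± 1.02 (adjusted p = 0.00858, and 4.69 without healthy replicate 4). At chronic 14 d it was 4.31 ± 1.03 (adjusted p = 0.0102), 5.09 without healthy replicate 4, and 2.79 without chronic 14 d replicate 2, when it was not called (adjusted p = 0.101). With depth class as a term the chronic 14 d value was 4.87 and was not called (adjusted p = 0.0633). Cyp26a1 passed the filter on low counts through the groups in which it was high. Its upstream window is the one printed above with the spaced repeat. Cyp26b1 was called in no comparison, with 0.683 to 7.19 CPM in healthy and 0 to 8.66 CPM in injured libraries. Cyp26c1 had 3 counts in all libraries together and was not tested.

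Vitamin D enzymes were scarce. Cyp2r1, the 25-hydroxylase, was the 1 tested member and was called in no comparison, with 4 counts in the healthy libraries together and 0 to 5 CPM in single libraries. Cyp27b1 had 14 counts in all libraries and Cyp24a1, which inactivates the hormone, had 2. Cyp20a1 (chr1:60343323-60388060, plus strand), whose substrate is unknown, measured 274, 254, 243 and 352 CPM in healthy HSCs and 130, 118, 152 and 153 at chronic 24 h. That difference, -1.02 ± 0.30 (adjusted p = 0.0114), was close to the 2-fold limit and fell under it without healthy replicate 4 or chronic 24 h replicate 1 or 2, at -0.89, -0.996 and -0.95. Cyp2d22, related to the human drug-metabolizing CYP2D enzymes, held 48.5, 50.4, 54.1 and 37 CPM in healthy HSCs and 37.6, 18.8, 15.2 and 19.6 at chronic 24 h, with an overlap at replicate 1 of the latter (-1.06 ± 0.24, adjusted p = 0.00169), with a value of -0.91 to -0.996 and no call without healthy replicate 3 or chronic 24 h replicate 2, 3 or 4.

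Hepatocyte markers moved with many of these results. At acute 24 h, 20 of the 26 hepatocyte genes were called lower and none higher, with a median log2 fold change of -3.77. At acute 24 h the defining markers Alb, Apoa1, Ttr, Serpina1a, Fgb and Ahsg were still counted in every library, at 14 counts or more, and 5 of the 6 were called lower. In the later groups the hepatocyte list had 1 gene called lower than in healthy HSCs at acute 72 h, 1 called higher at acute 7 d, 1 at chronic 72 h and 0 at chronic 14 d. Its median log2 fold change was -0.42 at acute 72 h, 0.55 at acute 7 d, 0.90 at chronic 72 h and 1.31 at chronic 14 d. In the same order, the medians of the tested Cyp genes were -0.69, 0.56, 0.92 and 1.48. The part of hepatocyte RNA in these Cyp results was not tested. Within groups, the library with the highest hepatocyte sum was also the highest for 31 of the 49 tested Cyp genes with a count in healthy HSCs (63.3%, against 31.0% of all genes tested) and for 39 of 51 in chronic 14 d (76.5% against 29.7%). In the other groups the share was 32.7% to 59.2% of Cyp genes, against 25.9% to 35.1% of all genes.

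At chronic 24 h, 1 of the 26 hepatocyte genes was called lower and none higher, with a median change of -0.35 and none of the 6 defining markers called, beside 14 of 52 Cyp genes lower, or 8 without healthy replicate 4. The difference between these lists was not tested, and neither was the part of hepatocyte RNA. Relative to the summed hepatocyte markers of the same library, set to 1000 CPM, Cyp2e1 stood at 0.36 to 0.90 at chronic 24 h and at 1.43 to 5.01 in healthy libraries. The same ratio was 8.28 to 18.4 against 19.7 to 44.9 for Cyp3a11 and 0.15 to 0.83 against 1.73 to 6.24 for Cyp8b1. These 3 pairs of ranges did not overlap. Others did, with 0.72 to 2.19 against 0.94 to 3.29 for Cyp1a2, 0 to 0.23 against 0 to 1.12 for Cyp7a1, and 112 to 252 against 171 to 366 for all Cyp genes together. At later times the ratios of the 3 genes took different courses. Cyp2e1 was at 8.72 to 39.7 at acute 7 d and 6.05 to 16 at chronic 72 h, above all healthy libraries, Cyp8b1 at 0.61 to 1.38 at chronic 72 h was below all of them, and Cyp3a11 at 21.5 to 43.1 at acute 7 d lay within their range. The ratios are descriptions without a test.

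**Figure D4:**
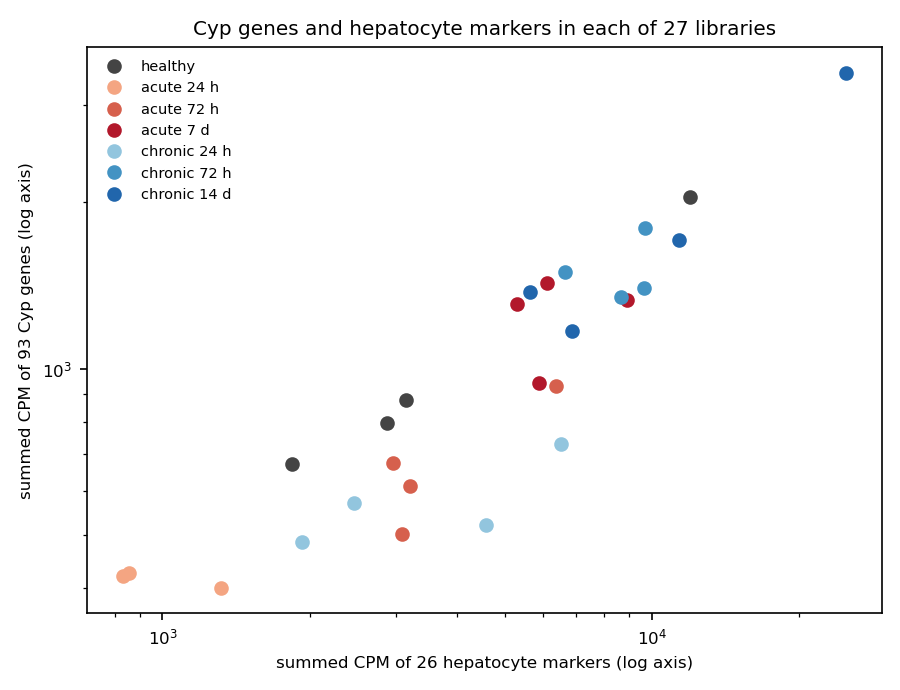
Summed CPM of the 93 Cyp genes against the summed CPM of 26 hepatocyte markers in each of the 27 libraries, both on log axes. Acute 24 h libraries are at the lower left (401 to 426 CPM of Cyp genes), and chronic 14 d replicate 2 and healthy replicate 4 at the upper right (3430 and 2047 CPM).

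**Figure D5:**
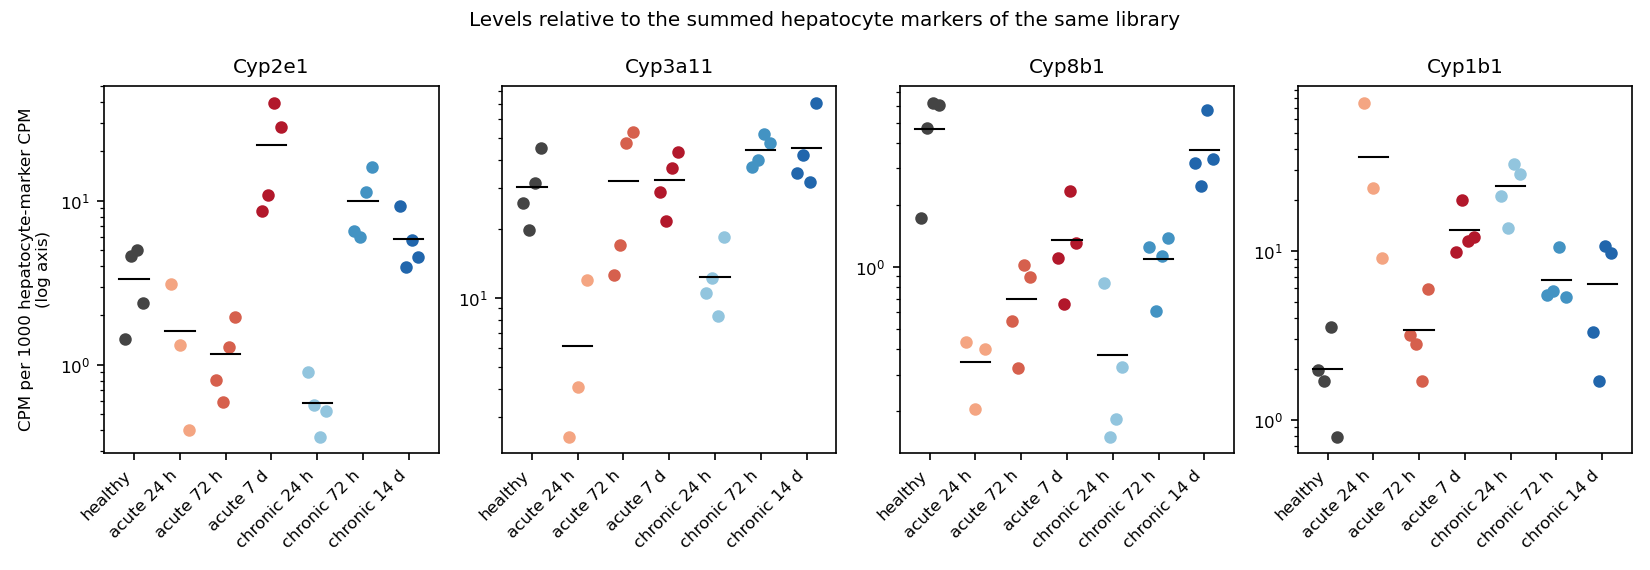
CPM of Cyp2e1, Cyp3a11, Cyp8b1 and Cyp1b1 per 1000 CPM of summed hepatocyte markers in each library, on log axes, with a bar at the group mean. The chronic 24 h libraries lie below the healthy ones for Cyp2e1 (0.36 to 0.90 against 1.43 to 5.01), Cyp3a11 and Cyp8b1, and above them for Cyp1b1 (13.6 to 32.8 against 0.79 to 3.54).

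The chronic 24 h libraries also allowed a repeated injury to be compared with a first one at the same time after the last injection. Of the 52 tested Cyp genes, 16 were higher at chronic 24 h than at acute 24 h, against 10.9% of all genes, and none was lower, against 3.05%, with 1 lower gene at an unadjusted p below 0.05 and 0 in DESeq2. The count of 16 became 5 without acute 24 h replicate 1, 3 without acute 24 h replicate 2, 7 without chronic 24 h replicate 1 and 3 among libraries of higher depth, and leaving out chronic 24 h replicate 1 gave 1 lower gene, as did the libraries of higher depth. In the same comparison 16 of the 26 hepatocyte genes were higher, with a median log2 fold change of 3.24. Among the 16 was Cyp4f14, at 1.05 to 3.71 CPM after 0 counts and at least 6.79-fold higher, or at least 4.36-fold without chronic 24 h replicate 2. Cyp1a2 was at 1.75 to 14.2 CPM after 0 to 0.439 CPM (5.13 ± 1.20, adjusted p = 0.00358). Without acute 24 h replicate 3 that value was 8.87, and without chronic 24 h replicate 1 it was 4.14. Cyp2e1, at 0.702 to 5.85 and 0.527 to 2.58 CPM, and Cyp27a1, at 18.1 to 34 and 17.4 to 23 CPM, overlapped between the groups and were not called.

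Of 46 other genes of the P450 system, comprising electron donors, nuclear receptors, retinoid enzymes and enzymes acting before or after P450s, 43 were tested. Against healthy HSCs 9 were lower and 8 higher at acute 24 h, 2 and 2 at acute 72 h, 2 and 7 at acute 7 d, 4 and 8 at chronic 24 h, 1 and 7 at chronic 72 h and 0 and 3 at chronic 14 d. The lower share was 20.9% at acute 24 h, against 12.5% of all genes, but 4.65% at acute 72 h and at acute 7 d and 9.30% at chronic 24 h lay near the 4.33%, 5.64% and 8.11% of all genes. The higher share was 18.6% at acute and chronic 24 h and 16.3% at acute 7 d and chronic 72 h, against 7.88% to 11.2% of all genes in those comparisons. Por, which supplies electrons to the microsomal P450s, was higher at acute 24 h, with means of 178 against 87.9 CPM (1.02 ± 0.25, adjusted p = 0.00315), and Hmox1, which breaks down heme, was higher in 5 of the 6 comparisons with healthy HSCs and not called at chronic 14 d. Hnf4a, a hepatocyte transcription factor that binds motifs of the CAAAGTCCA type, was lower at acute 24 h (means of 0.906 against 11.9 CPM, -3.70 ± 0.82, adjusted p = 0.00127) and was not called at chronic 24 h, with a mean of 13.5 CPM. The dioxin receptor Ahr was lower at acute 24 h (6.06 against 23.2 CPM, -1.94 ± 0.39, adjusted p = 0.0005), where Cyp1b1 was higher. Ephx1, the microsomal epoxide hydrolase that acts on products of P450s, was lower in every comparison with healthy HSCs but chronic 14 d, by 2.65 ± 0.21 at chronic 24 h (means of 82.3 against 515 CPM, adjusted p = 3.41e-09). Among enzymes that make or limit retinoic acid, Aldh1a3 was higher at acute 24 h (15.9 against 2.82 CPM, 2.49 ± 0.37, adjusted p = 2e-05) and Dhrs3, which returns retinal to retinol, was higher at chronic 72 h (319 against 83.9 CPM, 1.93 ± 0.29, adjusted p = 4.4e-05).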

How the data were processed

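RNA was sequenced in 27 libraries of sorted HSCs in 7 groups. Per the labels and the study's methods, the authors aligned single-end 75-base reads with STAR to GRCm38 and processed them with StringTie. The raw counts per gene were deposited without normalization, and the versions, the strand setting and how reads shared by genes were counted are not given in the sources used here. Ensembl identifiers were matched to symbols, with 53274 matched and 105 not.

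Counts were fitted in edgeR 4.0.16 (quasi-likelihood test, robust, filterByExpr, TMM scaling, 7 group means over all 27 libraries, 18758 genes tested), with calls at over 2-fold and an adjusted p (Benjamini-Hochberg) under 0.05. CPM are scaled to TMM library sizes. Replicates are described as individual experiments. If they shared a source, the p-values measure technical spread only. A fold against a group at 0 is a bound from a floor of 3 counts per library, which covers counting error only. DESeq2 1.42.0, other scalings and filters, fewer libraries, depth class (above or below 9 M counts) and a replicate block were the alternatives. The fitting was tested on simulated counts.

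Members and lists were chosen with earlier results of these data known. Members described by library were 10 genes set by name, up to 5 called genes in each direction per comparison that had the most extreme log2 fold changes, a mean log2 CPM not under 0 and no overlap between groups, and the 10 members with the highest mean CPM. Cyp1a1, Cyp46a1, Cyp2r1, Cyp2c37 and Cyp4a10 were added after their values were seen. Sequences came from RefSeq.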

Additional observations from a re-analysis of the deposited data

Results flagged for a closer look

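Of 168 groups of 4 values tested with Dixon's criterion, 30 had a library far from the other 3 of its group. The rate of about 1 in 20 for this criterion holds for normally distributed values. Where the other 3 libraries were at 0, any count was flagged, so the 30 are not read as an excess. Healthy replicate 4 was the library far from the others, on the high side, for 10 measures. It held 537 CPM of Cyp3a11, 138 of Cyp2d9, 88.8 of Cyp4v3, 72.4 of Cyp3a25, 47.7 of Cyp7b1, 35.5 of Cyp2j5, 7.19 of Cyp26b1, 6.67 of Cyp2a22 and 3.90 of Cyp2d12, and a summed level of all Cyp genes of 2047 CPM. The same library was the lowest of its group for Cyp2c23, at 0 CPM. It also held the highest summed hepatocyte markers of its group, and their part in these values was not tested.

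In chronic 14 d replicate 2, the other library highest in hepatocyte markers, Cyp3a25 was at 196 CPM, Cyp4v3 at 86.6 CPM and Cyp26a1 at 16.6 CPM. Replicate 3 of that group was high in Cyp26b1 at 8.66 CPM. In chronic 24 h replicate 1, Cyp1b1 was at 138 CPM, Cyp8b1 at 5.40 CPM, Cyp7a1 at 1.499 CPM and Cyp2c39 at 0.450 CPM, each above the other 3 libraries. Among the remaining chronic 24 h libraries, replicate 2 was high in Cyp4f14 at 3.71 CPM and replicate 4 in Cyp2c23 at 0.400 CPM and Cyp26a1 at 0.320 CPM.

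At acute 72 h the library far from the others was replicate 1 for Cyp26a1 at 0.354 CPM, replicate 2 for Cyp26b1 at 3.64 CPM, and replicate 3 for Cyp4f14 at 6.91 CPM and Cyp2c23 at 5.04 CPM. Acute 7 d replicate 1 was high in Cyp3a25 at 57.9 CPM and low in Cyp4v3 at 10.2 CPM. Single healthy libraries held Cyp2c39, at 1.26 CPM in replicate 3, and Cyp4f18, at 0.195 CPM in replicate 2, with 0 counts in the other 3.

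The effects of 1 and of 8 injections at 24 h differed for 13 of the genes described by library, by the test of chronic 24 h against acute 24 h, in which the shared healthy libraries drop out. The log2 difference was 5.13 for Cyp1a2, 4.45 for Cyp3a25, 3.36 for Cyp2a22, 3.15 for Cyp2d10, 3.11 for Cyp2j5, 2.70 for Cyp3a11, 1.80 for Cyp7b1, 1.61 for Cyp4v3, 1.40 for Cyp1b1 and 1.27 for Cyp39a1, all higher after chronic injury. With each of the 7 libraries omitted in turn, 3 of the 13 genes, Cyp1a2, Cyp2a22 and Cyp4f14, kept their call every time. Without acute 24 h replicate 1 or 2 the call was lost for Cyp2d10, Cyp2j5, Cyp3a11, Cyp3a25, Cyp39a1, Cyp4f15, Cyp4f18, Cyp4v3 and Cyp7b1, and without acute 24 h replicate 2 or 3 or chronic 24 h replicate 1 for Cyp1b1. Without chronic 24 h replicate 1 it was also lost for Cyp2d10, Cyp2j5, Cyp3a11, Cyp3a25, Cyp39a1, Cyp4f15 and Cyp4v3. Acute 24 h replicate 3 decided it for Cyp2d10, Cyp4f15, Cyp4v3 and Cyp7b1 as well, chronic 24 h replicate 2 for Cyp3a11 and Cyp4f15, replicate 3 for Cyp39a1, and replicate 4 for Cyp2d10, Cyp4f15 and Cyp7b1. The value ranged over these omissions from 4.14 to 8.87 for Cyp1a2, 3.46 to 8.98 for Cyp3a25, 2.26 to 4.06 for Cyp3a11, 2.58 to 3.79 for Cyp2d10 and 1.01 to 2.38 for Cyp1b1. The fitted values of 7.75 for Cyp4f18, 7.22 for Cyp4f14 and 4.95 for Cyp4f15 depend on the prior count, since all 3 acute 24 h libraries were at 0. Hepatocyte markers were higher in the same comparison and their part was not tested.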

How the results depend on the processing

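The alternatives were followed for 69 changes of genes described by library, nearly all of them called in the main fit. None of these changed direction under any alternative that gave a value. Since a called change rarely reverses, this is a weak check. Most changes that were not called, some called ones such as Cyp8b1 at chronic 24 h, and the genes added after their values were seen were not followed. For the 69 changes, 750 of 810 values under other settings kept their side of the threshold, as did 460 of 529 with 1 library omitted. Dropping the fold minimum or allowing an adjusted p below 0.1 only loosened the threshold on the same fit. A called gene could not lose its call there, and these values are among the 810. Fitting only the 2 groups compared gave 8 lower and 1 higher gene at chronic 24 h, 7 higher at chronic 72 h, 2 higher at chronic 14 d, 3 lower at acute 72 h and 9 higher at chronic 24 h against acute 24 h. An adjusted p below 0.1 gave 10 higher at chronic 14 d and 13 lower and 2 higher at acute 72 h, where DESeq2 gave 11 and 2. At acute 7 d lower genes numbered 2 with no fold minimum, 1 at a mean of at least 1 CPM and 1 with the replicate block. No filter gave 7 higher genes at chronic 24 h against acute 24 h, and depth class as a term gave 10 there and 1 at chronic 14 d. The cause of these shifts was not tested.

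Chosen after seeing the data, the fit within a depth class gave 8 higher at chronic 72 h, 12 higher at chronic 14 d against chronic 24 h, and 1 lower and 3 higher at chronic 24 h against acute 24 h. It could not be had for chronic 14 d against healthy. Omitting healthy replicate 4 and chronic 14 d replicate 2 together, also chosen then, gave 8 lower at chronic 24 h, 2 higher at acute 24 h, 4 lower and 2 higher at acute 72 h, 15 higher at acute 7 d and 19 higher at chronic 14 d against chronic 24 h. The mean summed Cyp level was 393 CPM at acute 24 h with library size alone (416 otherwise) and 1131 CPM at chronic 72 h without Cyp3a11 (1509 with it).

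With 1 library omitted at a time, lower genes numbered 8 to 15 at chronic 24 h, 22 to 27 at acute 24 h, 4 to 10 at acute 72 h, 0 to 2 at acute 7 d and 0 to 1 at chronic 24 h against acute 24 h. Higher genes numbered 5 to 17 at chronic 72 h, 1 to 20 at chronic 14 d, 1 to 2 at acute 24 h and at acute 72 h, 6 to 15 at acute 7 d, 19 to 31 at chronic 14 d against chronic 24 h and 3 to 16 at chronic 24 h against acute 24 h. The mean summed Cyp level was 781 to 1240 CPM in healthy, 596 to 739 at acute 72 h and 1416 to 2170 at chronic 14 d.

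The replicate numbers showed no pairing of the libraries in one measure, which cannot exclude a shared run or day. Depth did follow the numbers at chronic 24 h and chronic 72 h, where replicates 1 and 2 were of lower depth. Over 78 same-numbered pairs, the deviations from group means correlated at -0.136 to 0.124 across 2000 genes. With the replicate block, lower and higher genes numbered 10 and 4 at chronic 24 h, 0 and 12 at chronic 72 h, 0 and 4 at chronic 14 d, 25 and 1 at acute 24 h, 8 and 1 at acute 72 h, 1 and 8 at acute 7 d, 0 and 26 at chronic 14 d against chronic 24 h and 0 and 14 at chronic 24 h against acute 24 h. At these depths a gene with 0 counts in a group may be present below the floor of 3 counts per library.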
